A study of Homo sapiens with 12 samples.

Results

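BHLHE40, the gene with the largest rise under eliglustat in these libraries, was followed together with 9 other genes of the circadian clock: BHLHE41, PER1, PER2, PER3, CRY1, CRY2, NR1D1, NR1D2 and DBP. The 10 genes were taken by symbol from the 20036 genes of the authors' table, and all 10 were in it. The genes were chosen on the contrast of eliglustat with the solvent, in which BHLHE40 had the largest rise, so every value of that contrast is given here as a description, with no test. The cells were MV-4-11, an established human acute myeloid leukemia line with a KMT2A fusion and a FLT3 internal tandem duplication, labelled WT with bone marrow as tissue. All were kept in medium with fetal bovine serum, penicillin and streptomycin, and total RNA was sequenced after 48 h in 4 groups of 3 libraries. The Comb group received eliglustat and venetoclax together. The ELI group received eliglustat, an inhibitor of the glucosylceramide synthase UGCG, the ABT group venetoclax (ABT-199), an inhibitor of the survival protein BCL2, and the DMSO group the solvent alone. No doses are stated in the labels. MV-4-11 is a single line, and separate cultures are not stated for the libraries of a group, so the p-values below measure the spread between libraries, which may be technical.

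The circadian clock is a loop of transcription in which CLOCK and BMAL1 bind E-box sequences and switch on the genes of their own repressors. PER and CRY proteins assemble, enter the nucleus and block CLOCK and BMAL1. BHLHE40 and BHLHE41 are basic helix-loop-helix repressors that occupy the same E-boxes. NR1D1 and NR1D2 encode the REV-ERB nuclear receptors, heme-binding repressors that silence BMAL1 and other genes at ROR elements, and DBP is an activator that binds D-box sequences. BHLHE40 is also switched on by hypoxia, cytokines and differentiation signals in many cell types, and in mouse myeloid cells it is known for its part in macrophage proliferation and cytokine control. A population sampled at a single time cannot show rhythm, so only levels were compared.

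The E-box is the sequence that these repressors and CLOCK share, so the stretches that hold it before annotated starts are shown first. The 250 bases before each transcription start of RefSeq (GRCh38.p14) were taken and searched on both strands for the E-box CACGTG and its variant CACGTT. Each stretch is written 5′ to 3′ on the strand of its gene, with the E-box or the variant in capitals. On the opposite strand CACGTT reads AACGTG.
BHLHE40 (chr3:4979187-4979207, + strand, 245 to 240 bases before the start): tccaaCACGTGagactcatgt
BHLHE41 (chr12:26125070-26125095, - strand, 48 to 43 bases before the start): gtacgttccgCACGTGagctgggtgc
PER1 (chr17:8152562-8152587, - strand, 173 to 168 bases before the start): cacccaggtcCACGTGcgcccgtgtg
NR1D2 (chr3:23945956-23945981, + strand, 155 to 150 bases before the start): cgggcggggaCACGTGaggccgctcg
NR1D2 (chr3:23946006-23946031, + strand, 105 to 100 bases before the start): gccgcagggaCACGTGggggcggggg
PER2 (chr2:238288792-238288817, - strand, 197 to 192 bases before the start): cgcgcgcggtCACGTTttccactatg
CRY1 (chr12:107093623-107093648, - strand, 89 to 84 bases before the start): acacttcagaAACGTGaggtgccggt
CRY2 (chr11:45847277-45847302, + strand, 188 to 183 bases before the start): acatggtaggAACGTGagggggcggg
NR1D1 (chr17:40100742-40100767, - strand, 168 to 163 bases before the start): gcaagagctcAACGTGccggctgttg
BHLHE40, BHLHE41, PER1 and NR1D2 thus had the full E-box, NR1D2 at 2 places, and PER2, CRY1, CRY2 and NR1D1 had the variant. By the gene spans of GENCODE 29, which has other starts for some genes, 8 of these 9 stretches lie inside their own gene, all but that of NR1D1, and all 250 window bases of BHLHE40 and of CRY1 lie in annotated exons. CACGTG stood in 6.3% and CACGTT in 4.6% of the 35116 windows of the same length over all genes. Neither window of PER3 held the E-box or the variant, nor did that of the upstream start of CRY2. The window of DBP held none of the motifs searched here or below, which says only that these letters are absent from that window.

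NR1D2 and PER2 are shown with their whole windows, because they were the members, after BHLHE40, with the largest differences between Comb and ABT in each direction. Capitals mark the E-box or its variant, the D-box TTATGTAA (TTACATAA on the other strand) and the cyclic AMP response half-site TGACG. The D-box was in 0.8% and TGACG in 21.2% of all windows. The ROR and REV-ERB half-site AGGTCA, in 12.1% of all windows, was also searched, as were the D-box variant TTACGTAA (0.1%) and the full cyclic AMP response element TGACGTCA (1.6%), which contains TGACG. None of these last 3 was in either window.
NR1D2, at the downstream one of its 2 starts (chr3:23945871-23946120, + strand): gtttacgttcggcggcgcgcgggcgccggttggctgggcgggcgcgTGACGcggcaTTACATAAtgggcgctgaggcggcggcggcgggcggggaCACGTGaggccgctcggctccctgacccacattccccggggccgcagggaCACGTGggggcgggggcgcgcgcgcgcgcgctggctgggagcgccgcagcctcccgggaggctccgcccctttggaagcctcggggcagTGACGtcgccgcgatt
PER2 (chr2:238288611-238288860, - strand): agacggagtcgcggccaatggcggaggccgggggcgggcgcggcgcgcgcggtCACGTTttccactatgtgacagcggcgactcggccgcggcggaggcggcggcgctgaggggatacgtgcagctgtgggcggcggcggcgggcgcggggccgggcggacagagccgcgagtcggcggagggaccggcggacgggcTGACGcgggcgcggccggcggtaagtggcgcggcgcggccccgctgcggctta
The NR1D2 window held 2 E-boxes, 1 D-box and 2 cyclic AMP half-sites, none overlapping, and that of PER2 held 1 E-box variant and 1 cyclic AMP half-site. The window of the upstream start of NR1D2 held no searched motif. A match is a string of letters, and binding was not measured.

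BHLHE40 lies on chromosome 3 at positions 4979116 to 4985323, + strand (ENSG00000134107, GRCh38, GENCODE 29). Its level is given in FPKM, a read count divided by the length of the gene model and by the reads assigned in that library. It stood at 46.9, 44.0 and 46.0 FPKM in Comb libraries 1 to 3, at 27.0, 27.3 and 26.5 FPKM in ELI, at 3.68, 3.80 and 3.68 FPKM in ABT, and at 2.65, 3.20 and 3.72 FPKM in DMSO. All 6 libraries with eliglustat were above all 6 without it, and the Comb libraries were above the ELI libraries. The ABT and DMSO libraries overlapped. The values rest on 3111 to 3195 recovered reads per library in Comb, 1707 to 1961 in ELI, 241 to 257 in ABT and 161 to 265 in DMSO. Among the 9959 genes tested, the mean level of BHLHE40 lay at percentile 92.3 in Comb, 84.7 in ELI, 30.9 in ABT and 24.6 in DMSO.

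**Figure D1:**
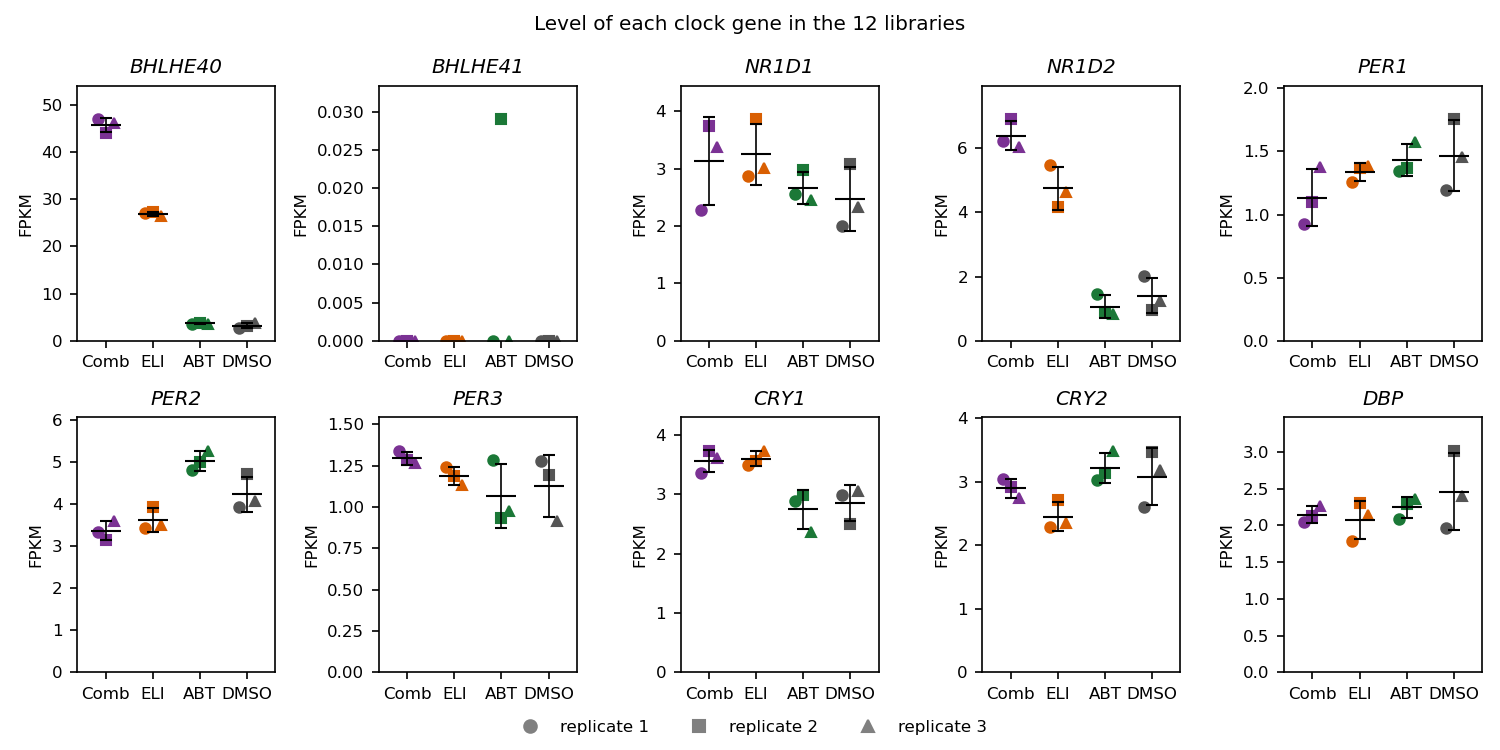
Level of the 10 clock genes in FPKM (linear axes from 0) in each library of Comb, ELI, ABT and DMSO; marker shapes are replicates 1 to 3, and bars are the mean and SD of 3 libraries (none for BHLHE41). BHLHE40 sits at 44.0 to 46.9 FPKM in Comb and 26.5 to 27.3 FPKM in ELI, and at 2.65 to 3.80 FPKM in the ABT and DMSO libraries.

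The libraries of ELI, ABT and DMSO deviated from their group means along base composition, replicate 1 of each in the direction opposite to replicates 2 and 3. Spearman's rho across genes between a library's deviation from its group mean and the GC content of the transcripts was -0.70 in ELI replicate 1, -0.70 in ABT replicate 1 and -0.79 in DMSO replicate 1. It was 0.81 in DMSO replicate 2, 0.69 in ELI replicate 2 and 0.62 in ABT replicate 3, and lay between -0.29 and 0.26 in the Comb libraries. Several members followed this in both directions. NR1D2, the poorest in GC, was highest in replicate 1 of ELI, ABT and DMSO, as was PER3 (46.2% GC). PER1 (62.7% GC), CRY2 (57.0%), DBP (65.5%) and PER2 (52.4%) were lowest in replicate 1 of those groups. CRY1 (47.7%) did not follow it, being lowest in replicate 1 of ELI and between the others in ABT and DMSO. NR1D1 (59.5%) was lowest in replicate 1 of ELI and DMSO but between the others in ABT. BHLHE40 (52.0% GC) was 27.0 FPKM in ELI replicate 1, between the other two, and was lowest in replicate 1 of DMSO, at 2.65 FPKM, and of ABT, at 3.682 FPKM beside 3.683 FPKM in replicate 3. Genes are not independent replicates, so these rho values are given without a p. In the comparisons that follow, values are also given with the loess trend of each library on GC content and length removed where that turns or ends a call. That trend was fitted to each library's deviation from the mean of all 12 libraries, not from its group mean. A GC or length trend that differed between the groups was therefore removed too, and what part of it came with the drugs was not tested. A gene passed when its p-value from limma, after Benjamini-Hochberg adjustment over all 9959 genes, was under the threshold of 0.05. Without the 4 libraries numbered 1, BHLHE40, NR1D2, CRY1 and PER2 passed in Comb against ABT as they did with all libraries, and NR1D1 (limma adjusted p = 0.043) and PER3 (0.040) passed as well.

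**Figure D2:**
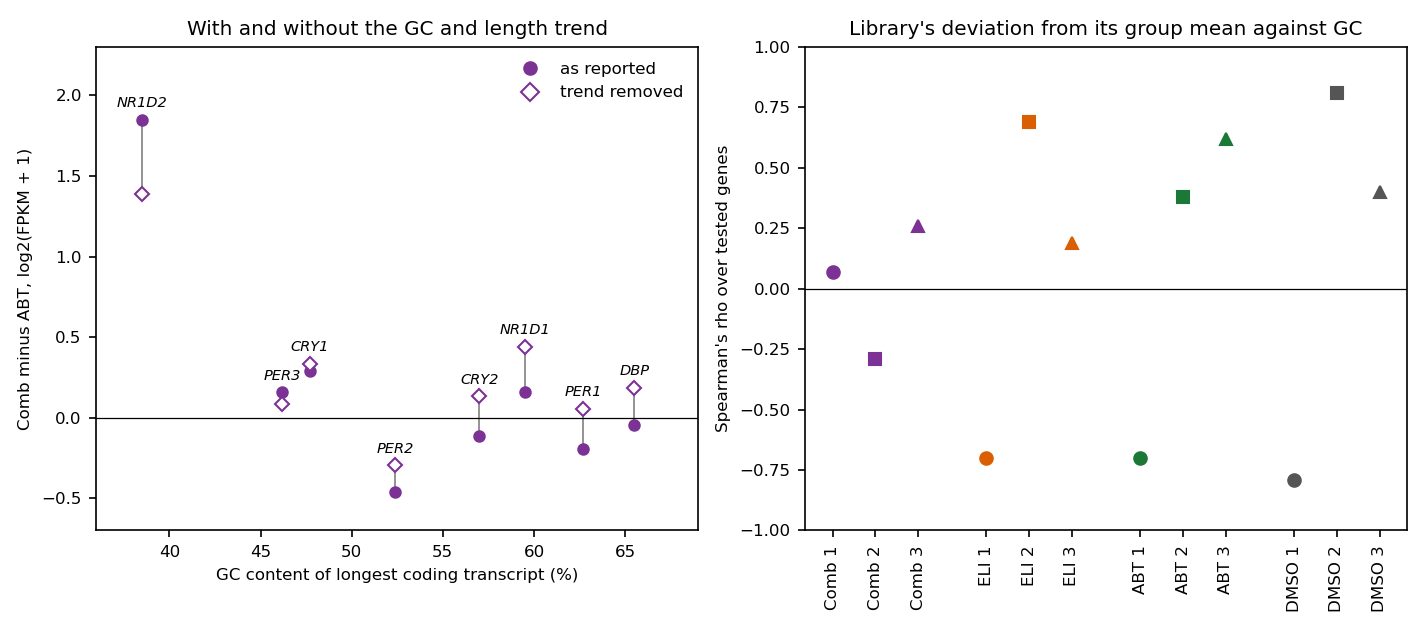
Left, Comb minus ABT in log2(FPKM + 1) against transcript GC content for 8 tested clock genes (BHLHE40, at 3.30, is left out), as reported (filled) and with each library's GC and length trend removed (open). Right, Spearman's rho across tested genes between a library's deviation from its group mean and GC content; replicate 1 of ELI, ABT and DMSO lies at -0.70 to -0.79.

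The main comparison set eliglustat plus venetoclax against venetoclax alone, since none of its 6 libraries entered the contrast on which BHLHE40 was picked. BHLHE40 and NR1D2 rose strongly, CRY1 rose slightly, PER2 fell, and the other 5 tested genes did not pass the threshold. BHLHE40 averaged 45.6 ± 1.51 FPKM in Comb and 3.72 ± 0.0668 FPKM in ABT (SD, n = 3 each), a ratio of 12.3. On the log2(FPKM + 1) scale, which understates the change of low genes, the difference was 3.30 (SE 0.08, limma adjusted p = 4.1e-10), the largest rise of all 9959 genes. It ranged from 3.25 to 3.62 over 24 other settings and passed the threshold of 0.05 in all 24.

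NR1D2 (ENSG00000174738, chromosome 3, 23945260 to 23980618, + strand) is the REV-ERB receptor that these cells expressed most under eliglustat. It stood at 6.22, 6.89 and 6.03 FPKM in Comb and at 1.47, 0.909 and 0.826 FPKM in ABT. The ELI libraries held 5.47, 4.15 and 4.63 FPKM, and the DMSO libraries 2.02, 0.975 and 1.24 FPKM. Every library with eliglustat was above every library without it. NR1D2 rose by 1.85 in Comb against ABT on the log2(FPKM + 1) scale (SE 0.16, limma adjusted p = 1.7e-06), a 5.98-fold ratio of the means and the 29th largest rise of all genes tested. Its transcript is poor in G and C (38.5%), and with the GC and length trend of each library removed the rise was 1.39 (SE 0.06). Its paralog NR1D1 averaged 3.13 ± 0.763 FPKM in Comb and 2.66 ± 0.274 FPKM in ABT (SD, n = 3 each), and the difference of 0.16 did not pass (95% interval -0.16 to 0.49, limma adjusted p = 0.35). With the trend removed NR1D1 differed by 0.44 (limma adjusted p = 0.0056). NR1D1 overlaps THRA, the thyroid hormone receptor gene, and shares 263 exon bases with it (9.5% of the NR1D1 exons), and whether the authors' counting used strand is not given. THRA averaged 6.77 ± 0.139 FPKM in Comb and 10.3 ± 0.255 FPKM in ABT (SD, n = 3 each), and its part in the NR1D1 value was not tested.

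Of the PER genes, which encode the proteins that carry CRY into the repressor complex, PER2 moved most. PER2 (ENSG00000132326, chromosome 2, 238244038 to 238290102, - strand) stood at 3.35, 3.16 and 3.61 FPKM in Comb and at 4.81, 5.01 and 5.27 FPKM in ABT, with every Comb library below every ABT library. It fell by 0.46 on the log2(FPKM + 1) scale (SE 0.08, limma adjusted p = 0.00031), and by 0.29 with the GC and length trend removed, where it still passed. PER1 stood at 0.929, 1.10 and 1.37 FPKM in Comb and at 1.35, 1.37 and 1.58 FPKM in ABT, and these libraries overlapped. Its difference of -0.19 did not pass (95% interval -0.40 to 0.02, limma adjusted p = 0.093, and 0.034 without Comb replicate 3) and was 0.06 with the trend removed. PER3 stood at 1.34, 1.28 and 1.26 FPKM in Comb and at 1.29, 0.934 and 0.973 FPKM in ABT, a difference of 0.16 that did not pass (95% interval -0.02 to 0.34, limma adjusted p = 0.11, and 0.024 without ABT replicate 1).

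CRY1 (ENSG00000008405, chromosome 12, 106991364 to 107093829, - strand), the stronger repressor of the pair of cryptochromes in mouse, stood at 3.36, 3.72 and 3.61 FPKM in Comb and at 2.88, 2.99 and 2.37 FPKM in ABT. All Comb libraries were above all ABT libraries. CRY1 rose by 0.29 on the log2(FPKM + 1) scale (SE 0.08, limma adjusted p = 0.0088), a ratio of 1.30, and its adjusted p ran from 0.0024 to 0.043 over the 24 other settings. CRY2 averaged 2.90 ± 0.150 FPKM in Comb and 3.22 ± 0.238 FPKM in ABT (SD, n = 3 each), and its difference of -0.11 did not pass (95% interval -0.30 to 0.08, limma adjusted p = 0.26). DBP averaged 2.15 ± 0.112 FPKM in Comb and 2.25 ± 0.143 FPKM in ABT (SD, n = 3 each), with a difference of -0.04 (95% interval -0.27 to 0.18, limma adjusted p = 0.72). For both genes the direction turned with the GC and length trend removed, to 0.13 for CRY2 (limma adjusted p = 0.037) and 0.18 for DBP (limma adjusted p = 0.0062). DBP shares 661 exon bases (10.1% of its exons) with SPHK2, which lies on the opposite strand. Part of its reads could not be assigned with certainty if the counting ignored strand, which is not given. SPHK2 averaged 3.21 ± 0.065 FPKM in Comb and 3.76 ± 0.051 FPKM in ABT (SD, n = 3 each), and its part in the DBP value was not tested. BHLHE41, the closest relative of BHLHE40, was at 0 in 11 libraries and at 0.029 FPKM, or 1 read, in ABT replicate 2, and it was not tested.

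In all, 4 of the 9 tested members passed in Comb against ABT, 3 of them higher and 1 lower, and the libraries of the 2 groups were apart for the same 4. Over all genes tested 67.2% passed, 35.4% higher and 31.7% lower, and for 76.5% the libraries of the 2 groups did not overlap. The difference between the members' share and that of all genes was not tested. With the GC and length trend removed 7 of the 9 members passed, and 6 passed without the 4 libraries numbered 1. The median size of the difference, whatever its sign, was 0.191 over the 9 members and 0.349 over all genes.

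**Figure D3:**
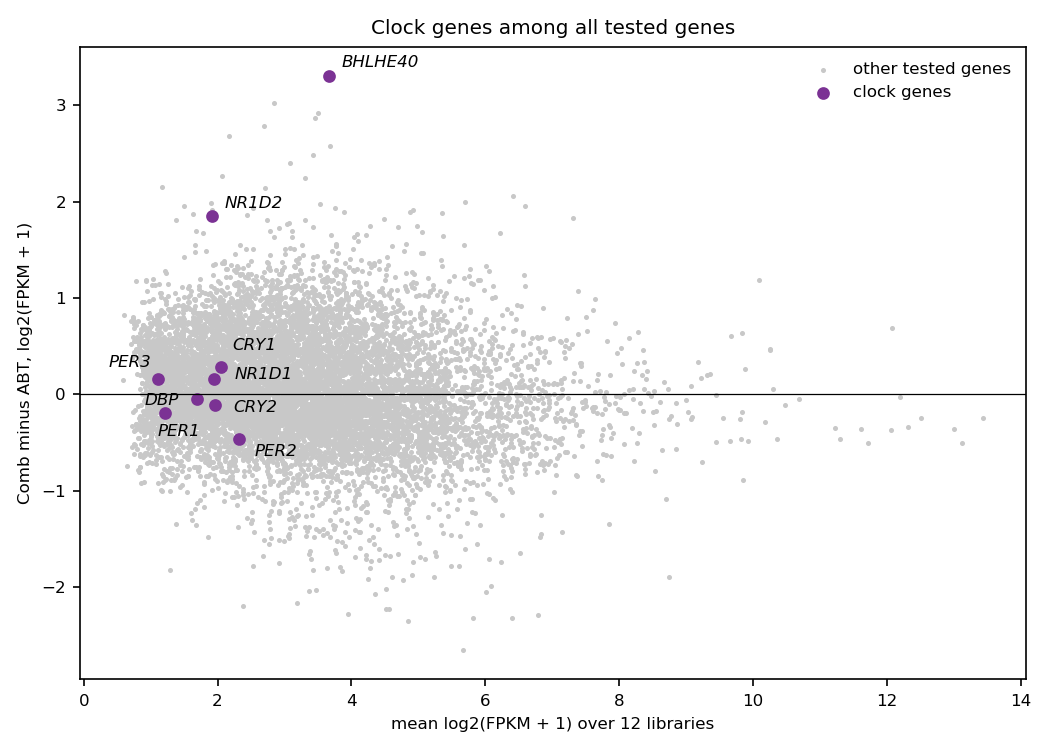
Difference Comb minus ABT in log2(FPKM + 1) against the mean level over the 12 libraries for each of the 9959 tested genes (grey) and the 9 tested clock genes (purple). BHLHE40 is the highest point at 3.30, NR1D2 stands at 1.85, and the other 7 lie between -0.46 and 0.29.

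Eliglustat alone against the solvent is the contrast on which BHLHE40 was picked. BHLHE40 averaged 26.9 ± 0.445 FPKM in ELI and 3.19 ± 0.534 FPKM in DMSO (SD, n = 3 each), a ratio of 8.44 and a difference of 2.74 on the log2(FPKM + 1) scale. NR1D2 averaged 4.75 ± 0.667 FPKM in ELI and 1.41 ± 0.544 FPKM in DMSO, a difference of 1.27, the 34th in order from the largest rise. CRY1 averaged 3.59 ± 0.126 FPKM in ELI and 2.85 ± 0.307 FPKM in DMSO, a difference of 0.26. For these 3 of 9 members all ELI libraries were above all DMSO libraries, beside 18.4% of all genes, and 40.5% had libraries apart in either direction. The other 6 differed by -0.24 (CRY2) to 0.30 (NR1D1) with overlapping libraries. With the GC and length trend removed the difference was 1.05 for NR1D2, -0.11 for CRY2 and 0.45 for NR1D1, and PER1 and PER3, at -0.07 and 0.04, turned to 0.064 and -0.014. The labels state no pairing, but same-numbered ELI and DMSO libraries deviated alike from their group means (correlations of 0.82, 0.78 and 0.24). Between same-numbered libraries CRY2, PER2 and DBP were lower in ELI in all 3 and NR1D1 was higher in ELI in all 3. The share of all genes with 1 direction in all 3 was not counted. With the GC and length trend removed the difference was -0.10 for PER2 and -0.04 for DBP. PER2 stood at 3.44, 3.94 and 3.50 FPKM in ELI and at 3.93, 4.71 and 4.07 FPKM in DMSO, so that ELI replicate 2 reached the lowest DMSO library.

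The eliglustat differences with and without venetoclax can be set side by side, and they share no library. BHLHE40 differed by 3.30 in Comb against ABT and by 2.74 in ELI against DMSO, 0.56 more with venetoclax (SE 0.12). NR1D2 differed by 1.85 and 1.27, 0.58 more (SE 0.22, and 0.34 with the GC and length trend removed), and PER2 by -0.46 and -0.18, a change of -0.29 (SE 0.11). No test is given for these, because the difference holds the contrast that picked BHLHE40.

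**Figure D4:**
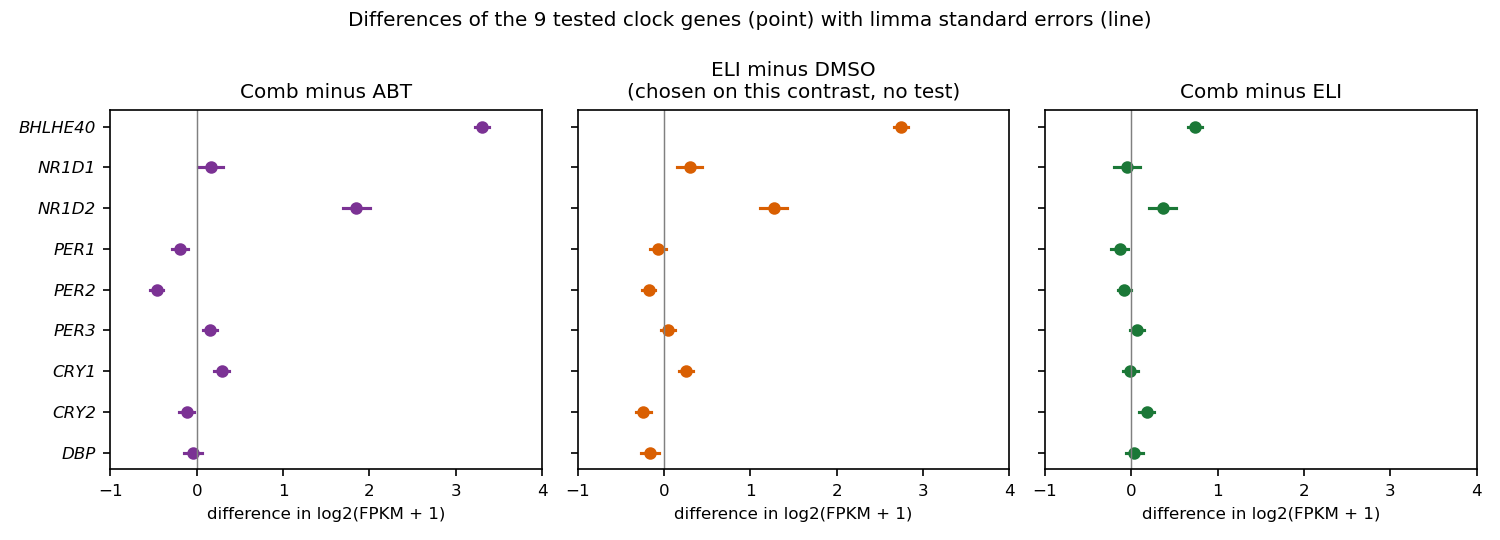
Difference in log2(FPKM + 1) for the 9 tested clock genes in Comb minus ABT, ELI minus DMSO and Comb minus ELI; points are limma estimates from 3 libraries a group and lines are 1 standard error on each side. BHLHE40 and NR1D2 lie far to the right in the left and middle panels, at 3.30 and 1.85 and at 2.74 and 1.27.

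Venetoclax added to eliglustat raised BHLHE40 further. It averaged 45.6 ± 1.51 FPKM in Comb and 26.9 ± 0.445 FPKM in ELI (SD, n = 3 each), a ratio of 1.69 and a rise of 0.74 on the log2(FPKM + 1) scale (SE 0.08, limma adjusted p = 8.7e-05), the 17th largest rise of all genes. It passed in all 24 other settings, with a range of 0.72 to 0.77. These libraries share the ELI group with the contrast that picked BHLHE40, so its p-value is not independent of that choice. BHLHE40 was the 1 member of 9 to pass here, against 9.55% of all genes, 3.03% higher and 6.52% lower. The 951 genes behind that share became 588 without Comb replicate 3, 600 without ELI replicate 3, 608 without Comb replicate 2, 624 without Comb replicate 1 and 1529 without DMSO replicate 1. NR1D2 was higher in every Comb library than in every ELI library, but its difference of 0.37 did not pass (95% interval 0.03 to 0.70, limma adjusted p = 0.19). It passed in 5 of the 24 other settings, with a limma adjusted p of 0.00065 once the GC and length trend was removed and 0.012 from the 6 compared libraries alone. PER3 and CRY2 were also higher in every Comb library than in every ELI library, with differences of 0.07 and 0.18 that did not pass (for CRY2, limma adjusted p = 0.27, and 0.022 with the trend removed). That made 4 of 9 members with all Comb libraries above all ELI libraries, beside 19.7% of all genes, and 40.2% had libraries apart in either direction. CRY1 differed by -0.01 (95% interval -0.19 to 0.17) and PER2 by -0.08 (95% interval -0.25 to 0.09), and neither passed.

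Both drugs against the solvent gave the same 4 calls, with DMSO libraries shared with the contrast that picked BHLHE40. BHLHE40 averaged 45.6 FPKM in Comb and 3.19 FPKM in DMSO, a rise of 3.48 on the log2(FPKM + 1) scale (SE 0.08) and a ratio of 14.3. Since its DMSO values were used to pick it, that rise is a description, and its call here is no separate evidence. NR1D2 rose by 1.64 (SE 0.16, limma adjusted p = 5.6e-06), CRY1 rose by 0.25 (SE 0.08, limma adjusted p = 0.025) and PER2 fell by 0.26 (SE 0.08, limma adjusted p = 0.015). Of all genes 51.5% passed, 25.7% higher and 25.8% lower, beside these 3 and 1 of 9 members. The libraries were apart for the same 4 members and for 55.7% of all genes. The calls of CRY1 and PER2 were lost in the fit of the 6 compared libraries alone, with limma adjusted p = 0.055 for CRY1 and 0.051 for PER2. Leaving out DMSO replicate 2 gave 0.094 for CRY1 and 0.057 for PER2, leaving out Comb replicate 2 gave 0.085 for CRY1 and 0.066 for PER2, and leaving out Comb replicate 3 gave 0.068 for CRY1. The other 5 members differed by -0.21 (PER1) to 0.25 (NR1D1) and did not pass in the fit of all 12 libraries. With the GC and length trend removed NR1D1 differed by 0.40 and passed (limma adjusted p = 0.011, and 0.0027 with the replicate block). Without DMSO replicate 1 the limma adjusted p was 0.016 for PER1 and 0.043 for DBP, without Comb replicate 3 it was 0.037 for PER1, and without Comb replicate 1 it was 0.035 for NR1D1.

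With venetoclax alone none of the 9 members passed in the fit of all 12 libraries. DBP, at -0.08 there, differed by -0.20 with the GC and length trend removed and passed (limma adjusted p = 0.041, and 0.037 with the replicate block). BHLHE40 averaged 3.72 ± 0.0668 FPKM in ABT and 3.19 ± 0.534 FPKM in DMSO (SD, n = 3 each), a difference of 0.18 (95% interval 0.00 to 0.36, limma adjusted p = 0.25). The DMSO libraries are shared with the contrast that picked BHLHE40, so its p-value is not independent of that choice. PER2 stood at 4.81, 5.01 and 5.27 FPKM in ABT and at 3.93, 4.71 and 4.07 FPKM in DMSO, and was the 1 member whose libraries were apart, beside 7.73% of all genes with ABT higher and 13.5% in either direction. Its difference of 0.21 did not pass (limma adjusted p = 0.21, and 0.049 without DMSO replicate 2). NR1D2 differed by -0.21 (95% interval -0.55 to 0.13), and by 0.0087 with the GC and length trend removed. In this comparison 0.151% of all genes passed, 15 in number and all lower, a count that was 931 without DMSO replicate 2, 3 without DMSO replicate 3, 4 without ABT replicate 2, and 8 or 9 without ELI replicate 1, 2 or 3, ABT replicate 1 or 3, or Comb replicate 1 or 3. BHLHE40 and PER2 were the 2 members with an unadjusted p under 0.05, and the fit of recovered reads with limma voom passed 0 members as well. The labels state no pairing of the ABT and DMSO libraries either. With the replicate number as a block 142 genes passed and still 0 members. The fit of the 6 compared libraries alone passed 0 genes without the block and 2028 with it, a setting chosen after seeing the data, and again 0 members. The count of genes that pass with venetoclax alone thus depends on the setting.

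Within each group the order of the members changed with eliglustat. BHLHE40 was the highest of the 10 in Comb and in ELI, followed by NR1D2 in both, with no overlap between neighbours down to that place. In ABT and in DMSO PER2 was the highest, BHLHE40 was next, and NR1D2 stood 8th. In DMSO the libraries of BHLHE40, CRY2, CRY1, NR1D1 and DBP overlapped from each to the next. BHLHE40 made up 63.8% to 67.5% of the summed FPKM of the 10 members in the Comb libraries, 54.2% to 55.3% in ELI, 15.9% to 16.2% in ABT and 12.9% to 16.6% in DMSO. Without BHLHE40 the sum was 22.6 to 24.9 FPKM in Comb, 21.8 to 23.1 FPKM in ELI, 19.3 to 19.6 FPKM in ABT and 18.0 to 20.7 FPKM in DMSO.

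The genes whose pattern was most like that of BHLHE40 were found by Pearson's r of log2(FPKM + 1) over the 12 libraries, among the 6312 genes that averaged 5 FPKM or more. Of these, 180 had r over 0.95, and all share the same 12 libraries and 4 groups. The 8 highest were SOCS2, COL6A1, LPXN, UAP1L1, TXNIP, TMEM233, DUSP3 and IFITM1, with r between 0.9931 and 0.9968. SOCS2, a feedback inhibitor of cytokine signalling, averaged 8.28 ± 0.195 FPKM in Comb, 6.85 ± 0.32 FPKM in ELI, 3.49 ± 0.048 FPKM in ABT and 3.40 ± 0.026 FPKM in DMSO (SD, n = 3 each). COL6A1, a chain of collagen VI, averaged 17.8 ± 0.676 FPKM in Comb, 11.0 ± 1.04 FPKM in ELI, 1.73 ± 0.192 FPKM in ABT and 1.83 ± 0.273 FPKM in DMSO. TXNIP, the thioredoxin-interacting protein, averaged 67.9 ± 2.02 FPKM in Comb, 58.4 ± 2.20 FPKM in ELI, 29.4 ± 1.51 FPKM in ABT and 29.2 ± 1.40 FPKM in DMSO. Each of the 8 had the Comb mean highest and the ELI mean next, an order largely fixed by choosing them for likeness to BHLHE40.

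Among the members, NR1D2 was the most like BHLHE40, with r = 0.96, and PER2 the least, with r = -0.83. NR1D2 and PER2 ran opposite to each other (r = -0.93), and CRY1 was most like NR1D2 (0.89), as was PER3 (0.66). PER1 and DBP were each other's closest member (0.74), CRY2 was closest to DBP (0.71), PER2 to PER1 (0.68) and NR1D1 to BHLHE40 (0.54). The pairs closest in pattern among PER1, DBP and CRY2 are also those rich in GC, while NR1D2 and PER3 are the members poorest in it. The part of base composition in any of these r values was not tested.

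The other genes of the clock were counted by list. Of the activators and ROR receptors 7 were in the table and 3 were tested, and in Comb against ABT 1 rose, 1 fell and 1 did not pass, beside 35.4% of all genes higher and 31.7% lower. CLOCK averaged 2.98 ± 0.0452 FPKM in Comb and 1.57 ± 0.485 FPKM in ABT and rose by 0.64 (limma adjusted p = 0.0064), but by 0.0468 with the GC and length trend removed (limma adjusted p = 0.49). BMAL1, the partner of CLOCK and a target of the REV-ERB receptors, fell by 0.19 (limma adjusted p = 0.036). That call was lost without ABT replicate 1 or 2 or Comb replicate 1 or 3, with limma adjusted p of 0.13, 0.090, 0.086 and 0.11. BMAL2 differed by 0.08 and did not pass.

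All 7 tested D-box factors and clock outputs passed in Comb against ABT, 3 higher and 4 lower, with a median difference of -0.30 beside 0.024 over all genes, and a limma adjusted p of at most 0.0028. Of all genes 67.2% passed in this comparison. TSC22D3, a glucocorticoid-induced leucine zipper protein, rose by 1.81 (SE 0.08, limma adjusted p = 1.0e-08). NAMPT, the rate-limiting enzyme of NAD salvage, rose by 1.35, and by 0.67 with the GC and length trend removed. KLF9, a Krüppel-like factor, rose by 1.07. WEE1, the kinase that holds CDK1 inactive, fell by 0.80 (SE 0.06, limma adjusted p = 7.3e-07), USP2, a deubiquitinase, fell by 0.62 (0.36 with the trend removed), TEF, a D-box activator related to DBP, fell by 0.52 (0.26 with the trend removed), and NFIL3, a D-box repressor, fell by 0.30. In Comb against ELI WEE1 fell by 0.58 (limma adjusted p = 6.4e-05) and NFIL3 by 0.28 (limma adjusted p = 0.027), and the NFIL3 call was lost when any 1 of the 6 compared libraries was left out, with p of 0.055 to 0.12.

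Of the 16 tested kinases, ubiquitin ligases and partners of PER and CRY, 8 rose, 6 fell and 2 did not pass in Comb against ABT, with a median difference of 0.122, beside 67.2% of all genes that passed, 35.4% higher and 31.7% lower. TIMELESS, which pairs with TIPIN at replication forks and binds CRY in mammals, fell by 1.68 (SE 0.08, limma adjusted p = 1.0e-08) and was the 1 gene of this list to pass in Comb against ELI, beside 9.55% of all genes, where it fell by 0.82 (limma adjusted p = 2.8e-05). GSK3B rose by 0.68 and USP7 by 0.36, while WDR5 fell by 0.70, NONO by 0.51, HDAC3, the deacetylase that REV-ERB receptors recruit, by 0.45, and DDB1 by 0.40. TIMELESS and these 6 passed in all 24 other settings and had a limma adjusted p of at most 0.0045. With the trend removed the difference was 0.33 for GSK3B, -0.43 for WDR5 and -0.24 for HDAC3. The rises of PRKAA1 (0.56) and CSNK1A1 (0.31) and the fall of CSNK1E (-0.24) turned in direction with the trend removed, to -0.095, -0.14 and 0.0057. With ABT replicate 3 left out PRKAA1 did not pass (limma adjusted p = 0.054), nor did CSNK1E with ABT replicate 2 left out (0.082). NCOR1, the corepressor of REV-ERB receptors, rose by 0.32, BTRC by 0.20 and FBXW11 by 0.15, and these 3 calls were lost with the trend removed (limma adjusted p = 0.12, 0.15 and 0.55). Leaving out ABT replicate 3 ended all 3 calls as well (limma adjusted p = 0.11, 0.11 and 0.15), and NCOR1 was also lost without ABT replicate 2 (0.090) or Comb replicate 2 (0.086), BTRC without Comb replicate 1 (0.053) or 3 (0.091), and FBXW11 without ELI replicate 3, ABT replicate 1 or any Comb library (0.053 to 0.094).

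BHLHE40 belongs to the wider family of HES, HEY and ID genes, of which 15 were in the table and 3 reached the filter. HEYL fell by 0.39 in Comb against ABT (limma adjusted p = 0.00074), but its call was lost with the GC and length trend removed (-0.11, limma adjusted p = 0.25). HES6 and ID2 did not pass. In this comparison 67.2% of all genes passed, 31.7% of them all being lower.

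The labelled cell type was checked against markers. The 10 myelomonocytic markers summed to 579 to 586 FPKM in Comb, 569 to 598 FPKM in ELI, 459 to 531 FPKM in ABT and 513 to 579 FPKM in DMSO, and CD14 did not reach the filter. FLT3 made up most of that sum, at 323 FPKM in Comb, 352 FPKM in ELI, 216 FPKM in ABT and 261 FPKM in DMSO. Of the 9 tested in Comb against ABT, FLT3, HOXA9 and MEIS1 rose, MPO, LYZ (limma adjusted p = 0.037) and CD33 (0.034) fell, and 3 did not pass. Over all genes 67.2% passed in this comparison, 35.4% higher and 31.7% lower. The markers were tested in the fit of all 12 libraries alone, with no other setting. LYZ, the secreted lysozyme of myeloid cells, averaged 90.4 FPKM in Comb, 56.4 FPKM in ELI, 103 FPKM in ABT and 111 FPKM in DMSO. It rose in Comb against ELI, by 0.67 (limma adjusted p = 7.3e-05), beside 3.03% of all genes higher. Of 15 markers of other cell types 4 were tested, and 7 or 8 were at 0 in each group, HBB, PF4 and COL1A2 among those at 0 in all 4. They summed to 4.62 to 5.31 FPKM in Comb, 4.60 to 5.82 FPKM in ELI, 7.46 to 8.51 FPKM in ABT and 8.18 to 10.6 FPKM in DMSO. CD79A, a B cell marker, averaged 0.430 FPKM in Comb and 1.18 FPKM in ABT, on 8 to 15 reads per library in Comb and 24 to 37 in ABT. Of the 4, 2 fell in Comb against ABT, beside 31.7% of all genes, and ITGA2B (-0.02) and KRT8 (-0.11) did not pass. KRT8 rose in Comb against ELI, by 0.37 (limma adjusted p = 0.020), beside the same 3.03% of all genes. The summed level was thus lower in the libraries with eliglustat, and the part of any of these markers in the BHLHE40 result was not tested. In bulk RNA, fewer cells of a kind and less RNA per cell cannot be told apart.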

How the data were processed

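Total RNA of MV-4-11 cells was sequenced in 12 libraries, 3 per group. The authors deposited 1 table of FPKM values for 20036 genes by Ensembl identifier, per the file headers; for the aligner, counting tool, genome build and strand setting, the sources used here name none. A symbol was found for 20011, and 3675 were 0 throughout. Groups and replicate numbers came from the sample titles.

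The 9959 genes (9 of the 10 members) that reached 1 FPKM in 3 libraries were put on the log2(FPKM + 1) scale and fitted with limma 3.58.1 in R 4.3.3, as 4 group means over all 12 libraries, with trended and robust moderated variance. Benjamini-Hochberg adjustment ran over the 9959 genes within each contrast, at a threshold of 0.05. The fit was tested on simulated counts, drawn independently for each library with the same dispersion for all genes. They held no GC trend and no likeness between same-numbered libraries, so that test does not cover these features of the data. The design had named a count test should the table hold raw counts; it holds FPKM, so limma was used.

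Low values were whole multiples of 1 step per gene and library, so reads could be recovered: all 16361 genes above 0 (100.0%) gave whole reads within 1e-05, or 0.001 in a second pass, and totals of 17259898 to 21082302 reads per library. These reads set the precision of each value and were fitted with limma voom as an alternative. FPKM divides by the reads of these genes, so abundant genes that change shift the rest; the median difference over all genes stayed within 0.03 of 0.

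Replicate numbers were checked by the correlation of same-numbered libraries' deviations from their group means. These were 0.88, 0.39 and 0.49 between ABT and DMSO and 0.82, 0.78 and 0.24 between ELI and DMSO. Same-numbered libraries of those groups thus deviated alike, though the labels state no pairing. They also shared the sign of their GC trend, and the correlations were not repeated with that trend removed. The Comb libraries did not pair with any group by this check.

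The other settings were median-of-ratios scaling, 2 other filters, pseudocounts of 0.1 and 0.5, the replicate block, only the 6 compared libraries, the loess trend on transcript GC content and length (GENCODE 29) removed, leaving out the 4 libraries numbered 1, and leaving out each library. The limma voom fit and the block within the 6 compared libraries were chosen after seeing the data. The named genes are the 10 members, every list gene that passed in Comb minus ABT or Comb minus ELI, and the 8 genes most like BHLHE40, except that some list genes and markers are not reported here; COL6A1, SOCS2 and TXNIP were given in full after their values were seen, as were the list genes and markers named without a call. The members and lists were chosen with earlier results of these data known.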

Additional observations from a re-analysis of the deposited data

How the results depend on the processing

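BHLHE40 in Comb minus ABT, Comb minus DMSO and Comb minus ELI, and NR1D2, PER2 and CRY1 in Comb minus ABT, kept direction and call in all 24 settings. For BHLHE40, only Comb minus ABT among these shares no library with the contrast that picked the gene. The cause was not tested for any result that moved. With the GC and length trend removed, with or without the replicate block, 7 members passed in Comb minus ABT and 3 in Comb minus ELI, and 1 (DBP, lower) in ABT minus DMSO. From the 6 compared libraries, with or without the block, 2 members passed in Comb minus DMSO and 2 in Comb minus ELI, as did 2 in Comb minus ELI without the libraries numbered 1. Leaving out single libraries gave 2 to 6 members in Comb minus DMSO and 0 to 1 in ABT minus DMSO.

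Genes passing in Comb minus ELI numbered 951, against 2483 with the trend removed, 2816 with the replicate block added, 2252 from 6 libraries, 1607 with the block added, 1546 without the libraries numbered 1, and 588 to 1529 without single libraries (588 without Comb replicate 3, 1529 without DMSO replicate 1). In ABT minus DMSO 15 passed, against 8 with median-of-ratios scaling, 142 with the replicate block, 0 from 6 libraries (726 at an unadjusted p under 0.05), 2028 with the block added, 582 with the trend removed, 1058 with the block added, 147 without the libraries numbered 1, and 3 to 931 without single libraries (3 without DMSO replicate 3, 931 without DMSO replicate 2). The Comb libraries do not pair by number, and in their comparisons the block added the call of PER1 in Comb minus ABT (adjusted p = 0.049) and those of PER1 and NR1D1 in Comb minus DMSO.

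Some directions turned, among them those of CSNK1A1, PRKAA1 and CSNK1E, which had passed in Comb minus ABT. With the trend removed, Comb minus ABT was 0.056 for PER1, 0.13 for CRY2, 0.18 for DBP, 0.0057 for CSNK1E, -0.14 for CSNK1A1 and -0.095 for PRKAA1. CRY2 was 0.071 in Comb minus DMSO, CRY1 0.0081 in Comb minus ELI, and in ABT minus DMSO CRY2 was -0.061, NR1D1 -0.038 and NR1D2 0.0087. Without the libraries numbered 1, Comb minus ELI was 0.0052 for CRY1, 0.046 for NR1D1 and -0.0089 for DBP, and ABT minus DMSO was -0.0038 for CRY2. PER1 was 0.013 in ABT minus DMSO with median-of-ratios scaling. Without single libraries, CRY2 ran from -0.15 to 0.0068 in Comb minus DMSO, CRY1 from -0.035 to 0.023, NR1D1 from -0.16 to 0.11 and DBP from -0.032 to 0.088 in Comb minus ELI, and in ABT minus DMSO PER1 from -0.098 to 0.067, PER3 from -0.12 to 0.0055, CRY1 from -0.11 to 0.035, CRY2 from -0.036 to 0.12, NR1D1 from -0.013 to 0.21 and DBP from -0.19 to 0.031. Over the members and all settings, 792 values kept direction and call, and 37 turned. Of those that kept direction, 26 newly passed and 9 no longer passed. The 37 include CRY2 and DBP in Comb minus ABT with the trend removed, which passed after turning. A quasi-likelihood count test on recovered reads was not run, since the table holds FPKM. At this depth BHLHE41, with 0 or 1 read per library, could not be compared.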
